A study of Gallus gallus with 89 samples.

Results

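A set of 9 genes for BMP ligands and their extracellular modulators was read out cell by cell in the chick amniogenic somatopleure, the ectoderm and mesoderm that fold up to make the amnion. The ligands were BMP2, BMP4, BMP5 and BMP7, and the modulators were BMPER, NOG, CHRD, FST and SOSTDC1. They were chosen by name and make up 9 of the 13823 genes in the deposited table. All cells came from untreated wild-type chick embryos at embryonic day 1.5 (stage 10), and tissue of both layers from over 15 embryos was pooled, so no cell can be traced to an embryo. The 89 cells form 1 sample. No p-value was therefore computed, SDs are over cells, and every 95% interval is an exact Clopper-Pearson interval that covers counting error only.

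BMPs are secreted dimers of the TGF-beta superfamily. They bind receptor kinases that phosphorylate SMAD1, SMAD5 and SMAD9, which then switch on genes such as those of the ID, MSX and GATA families. Extracellular proteins bind the ligands on the way and block, carry or release them. In early vertebrate embryos BMP signalling keeps ectoderm non-neural and patterns the mesoderm, and in mouse, embryos without Bmp2 fail to close the proamniotic canal.

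The cells were divided by genes other than the 9. The 27 ectoderm-marker cells each detected at least 2 of the 3 surface ectoderm genes CDH1, TFAP2A and CLDN3, where detection means at least 10 CPM (counts scaled to a common total per cell). Of the other 62 cells, 41 detected CDX2, a caudal-type homeobox gene, and 21 did not. EPCAM, an epithelial adhesion gene not used to divide the cells, was detected in 27 of 27 ectoderm-marker cells, 17 of 41 CDX2-detected cells and 11 of 21 CDX2-undetected cells. Not every surface ectoderm marker was restricted in this way. KRT7 was detected in 27 of 27 ectoderm-marker, 41 of 41 CDX2-detected and 20 of 21 CDX2-undetected cells. Its means were 4296, 6676 and 2193 CPM in that order. The 12 surface ectoderm markers measured had median sums of 11912, 10496 and 2158 CPM, with medians of 10, 4 and 4 markers detected. For PRRX1, which marks limb and body wall mesenchyme, the counts were 5 of 27 ectoderm-marker, 38 of 41 CDX2-detected and 17 of 21 CDX2-undetected cells. The ectoderm-marker cells had a median of 1 of 11 lateral plate mesoderm markers, against 7 in CDX2-detected cells and 6 in CDX2-undetected cells, so both labels held for most cells but not for each one.

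Depth was similar between the classes, with a median of 1545740 gene reads in ectoderm-marker cells, 1407460 in CDX2-detected cells and 1464880 in CDX2-undetected cells (328645 to 2381723 over all cells). The classes differed in other respects. Cell titles begin with X09 or X29, a prefix that the labels do not explain, and X09 made up 14 of 27 ectoderm-marker, 33 of 41 CDX2-detected and 11 of 21 CDX2-undetected cells. In all, 5 cells detected at least 5 of 11 endothelial markers, of which none was an ectoderm-marker cell, 1 was CDX2-detected and 4 were CDX2-undetected. The summed level of the 11 endothelial markers ranged from 0 to 236 CPM in ectoderm-marker cells, from 0 to 7889 CPM in CDX2-detected cells and from 0 to 9523 CPM in CDX2-undetected cells, and TAL1, TEK, TIE1 and ERG had no read in the ectoderm-marker cells. Another sign, over 20% mitochondrial reads, was seen in 5 cells, all of them outside the ectoderm-marker class.

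A fixed rule of size was applied to all genes. A gene counted as higher when its mean CPM (with 1 CPM added) was at least 2-fold higher, its share of detecting cells was at least 20 percentage points higher, and the mean went the same way within X09 and within X29 cells. Ectoderm-marker cells were set against the 62 other cells, and 7 of the 9 genes were measured there, that is, detected in at least 10% of either set. SOSTDC1 and BMPER met the rule as higher, BMP5 met it as lower, and BMP2, BMP4, BMP7 and NOG met it in neither direction. Over all 9752 measured genes 4.98% were higher and 4.76% lower by this rule. CHRD and FST were detected in too few cells to be measured.

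**Figure D1:**
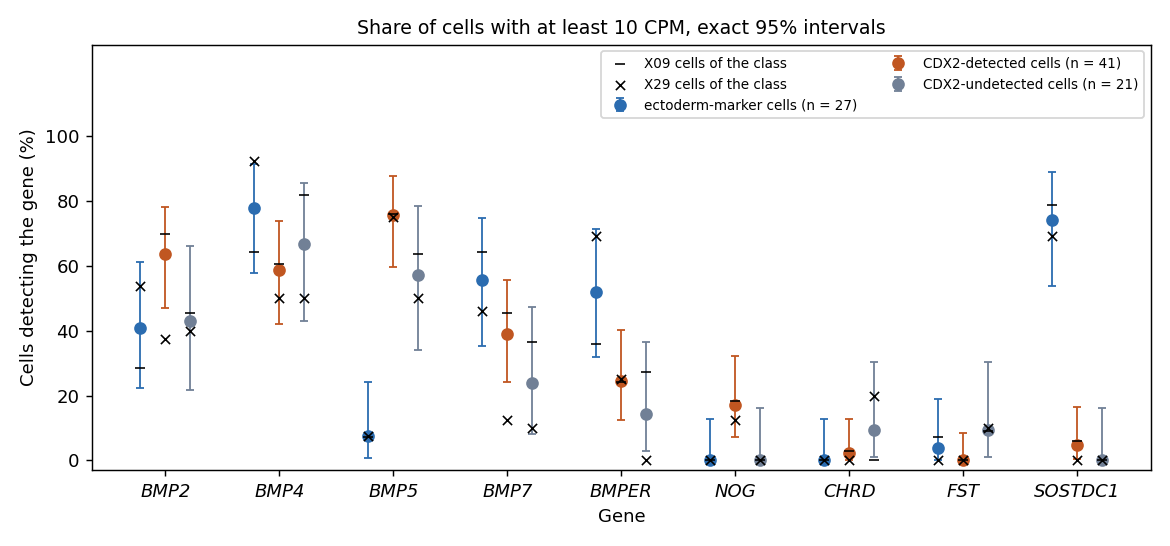
Share of cells detecting each of the 9 genes (vertical axis, % of cells at 10 CPM or more) in ectoderm-marker, CDX2-detected and CDX2-undetected cells, with exact 95% intervals; dashes and crosses give the X09 and X29 cells of a class. SOSTDC1 stands at 74.1% in ectoderm-marker cells against 4.88% in CDX2-detected and 0% in CDX2-undetected cells. BMP5 stands at 7.41% against 75.6% and 57.1%. The X29 cells lie above the X09 cells for BMPER and BMP4 in the ectoderm-marker class.

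Of the 4 ligands, BMP5 differed most between ectoderm-marker and other cells. It was detected in 2 of 27 ectoderm-marker cells (7.41%, interval 0.91 to 24.3%), in 31 of 41 CDX2-detected cells (75.6%, 59.7 to 87.6%) and in 12 of 21 CDX2-undetected cells (57.1%, 34 to 78.2%). Ectoderm-marker cells had a lowest, median and highest level of 0, 0 and 313 CPM, CDX2-detected cells 0, 122 and 729 CPM, and CDX2-undetected cells 0, 120 and 715 CPM. The ranges overlap only through the 2 ectoderm-marker cells with BMP5 and the cells without it in the other classes. The mean was 13.7 ± 60.9 CPM in ectoderm-marker cells and 182 ± 196 CPM in the other cells, a ratio of 0.0806.

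The exceptions among ectoderm-marker cells were X29_C54 at 313 CPM and X09_C75 at 57.7 CPM, each with 2 of the 3 ectoderm markers. X29_C54 also had 192 CPM of PRRX1 and 234 CPM of the mesenchymal cadherin CDH11, so it carried transcripts typical of both layers; without it the ratio was 0.0176. X09_C75 had no PRRX1 read and 3430 CPM of EPCAM, and it was the one ectoderm-marker cell with all 4 ligands. BMP5 was not detected in any of the 19 cells with all 3 ectoderm markers, which allows a share of up to 15.8%. Outside the ectoderm-marker class BMP5 was detected in 43 of the 55 cells with PRRX1 and in none of the 7 without it, which allows up to 42.9%. Of those 7 cells 4 were endothelial-marker cells, and the other ligands were also rare there: BMP2 was detected in 34 of 55 cells with PRRX1 and 1 of 7 without, BMP4 in 37 of 55 and 1 of 7, and BMP7 in 21 of 55 and none of 7.

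BMP5 did not meet the rule between CDX2-detected and CDX2-undetected cells. The mean was 191 ± 190 CPM in CDX2-detected cells and 165 ± 212 CPM in CDX2-undetected cells (ratio 1.16), and the shares differed by 18.5 points. In the same order the means were 201 and 127 CPM among X09 cells, and 146 and 206 CPM among X29 cells. The direction of the mean thus differed between the prefixes. The 5 cells with endothelial markers had no BMP5. Leaving out these and the cells without PRRX1, the shares were 81.6% of 38 CDX2-detected cells and 75% of 16 CDX2-undetected cells.

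BMP4, the ligand best known for holding ectoderm in a non-neural state, was present in both layers. It was detected in 21 of 27 ectoderm-marker cells (77.8%, 57.7 to 91.4%), 24 of 41 CDX2-detected cells (58.5%, 42.1 to 73.7%) and 14 of 21 CDX2-undetected cells (66.7%, 43 to 85.4%). The lowest, median and highest levels were 0, 80.2 and 567 CPM in ectoderm-marker cells, 0, 19.6 and 363 CPM in CDX2-detected cells, and 0, 57.6 and 511 CPM in CDX2-undetected cells. All 3 ranges overlap almost fully. Mean BMP4 was 152 ± 161 CPM in ectoderm-marker cells and 72.2 ± 109 CPM in other cells, a ratio of 2.09 with a difference in share of 16.5 points, so the rule was not met.

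The title prefixes differed for BMP4. Ectoderm-marker cells averaged 187 CPM against 62 CPM in other cells among X29 cells, and 119 CPM against 76.3 CPM among X09 cells. BMP4 was detected in 92.3% of ectoderm-marker and 50% of other X29 cells. The shares were 64.3% and 65.9% in X09 cells, so the higher share in ectoderm-marker cells came from X29 cells. In X09 cells the difference in mean rested largely on X09_C16, the cell with the highest level at 567 CPM, since without it the means were 84.2 CPM in ectoderm-marker and 76.3 CPM in other cells. Between the other classes the BMP4 mean was lower with CDX2, at 54.2 ± 82.5 CPM in CDX2-detected cells and 107 ± 143 CPM in CDX2-undetected cells (ratio 0.510). With the endothelial-marker cells left out, 60% of 40 CDX2-detected cells and 82.4% of 17 CDX2-undetected cells detected BMP4, and BMP4 then met the rule as lower in CDX2-detected cells. It did not meet the rule with the cells without PRRX1 left out. With all cells kept, the difference lay mainly in X09 cells, at 53.2 against 146 CPM. In X29 cells the means were 58.7 and 64.7 CPM, with 50% of each class detecting BMP4. Without X09_C65, the CDX2-undetected cell at 511 CPM, and with endothelial-marker cells kept, the ratio was 0.628. X09_C65 had 41.5 CPM of CLDN3, 31.9 CPM of PRRX1 and no CDH11 read, with reads for only 2550 genes.

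BMP2, the closest relative of BMP4, was detected in 11 of 27 ectoderm-marker cells (40.7%, 22.4 to 61.2%), 26 of 41 CDX2-detected cells (63.4%, 46.9 to 77.9%) and 9 of 21 CDX2-undetected cells (42.9%, 21.8 to 66%). The lowest, median and highest levels were 0, 0 and 209 CPM in ectoderm-marker cells, 0, 27.1 and 342 CPM in CDX2-detected cells, and 0, 0 and 229 CPM in CDX2-undetected cells, so the ranges overlap. The mean was 34.4 ± 56 CPM in ectoderm-marker cells and 49.2 ± 69 CPM in other cells (ratio 0.705). The share went in opposite directions by prefix. Among X09 cells BMP2 was detected in 28.6% of ectoderm-marker and 63.6% of other cells. Among X29 cells it was detected in 53.8% of ectoderm-marker and 38.9% of other cells. CDX2-detected cells averaged 52.8 ± 70.7 CPM and CDX2-undetected cells 42.3 ± 66.9 CPM (ratio 1.24). The share was 20.6 points higher with CDX2, but the ratio was below 2. The prefixes differed, since BMP2 was detected in 69.7% of CDX2-detected and 45.5% of CDX2-undetected cells among X09 cells, and in 37.5% of CDX2-detected and 40% of CDX2-undetected cells among X29 cells.

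BMP7, a partner that can form heterodimers with BMP2 or BMP4, reached 120 CPM at most in these 89 cells. It was detected in 15 of 27 ectoderm-marker cells (55.6%, 35.3 to 74.5%), 16 of 41 CDX2-detected cells (39%, 24.2 to 55.5%) and 5 of 21 CDX2-undetected cells (23.8%, 8.22 to 47.2%). The lowest, median and highest levels were 0, 14.6 and 85 CPM in ectoderm-marker cells, 0, 1.72 and 72.9 CPM in CDX2-detected cells, and 0, 0 and 120 CPM in CDX2-undetected cells. The ranges overlap, and the mean was 22.6 ± 26.3 CPM in ectoderm-marker cells against 13.6 ± 23.3 CPM in other cells (ratio 1.62, a share 21.7 points higher). BMP7 also followed the prefix, being detected in 48.3% of all X09 cells and 25.8% of all X29 cells. Within X09 cells it was detected in 64.3% of ectoderm-marker and 43.2% of other cells. Within X29 cells it was detected in 46.2% of ectoderm-marker and 11.1% of other cells. The share was thus higher in ectoderm-marker cells within both prefixes. CDX2-detected and CDX2-undetected cells had shares of 45.5% and 36.4% in X09 cells, and of 12.5% and 10% in X29 cells.

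**Figure D2:**
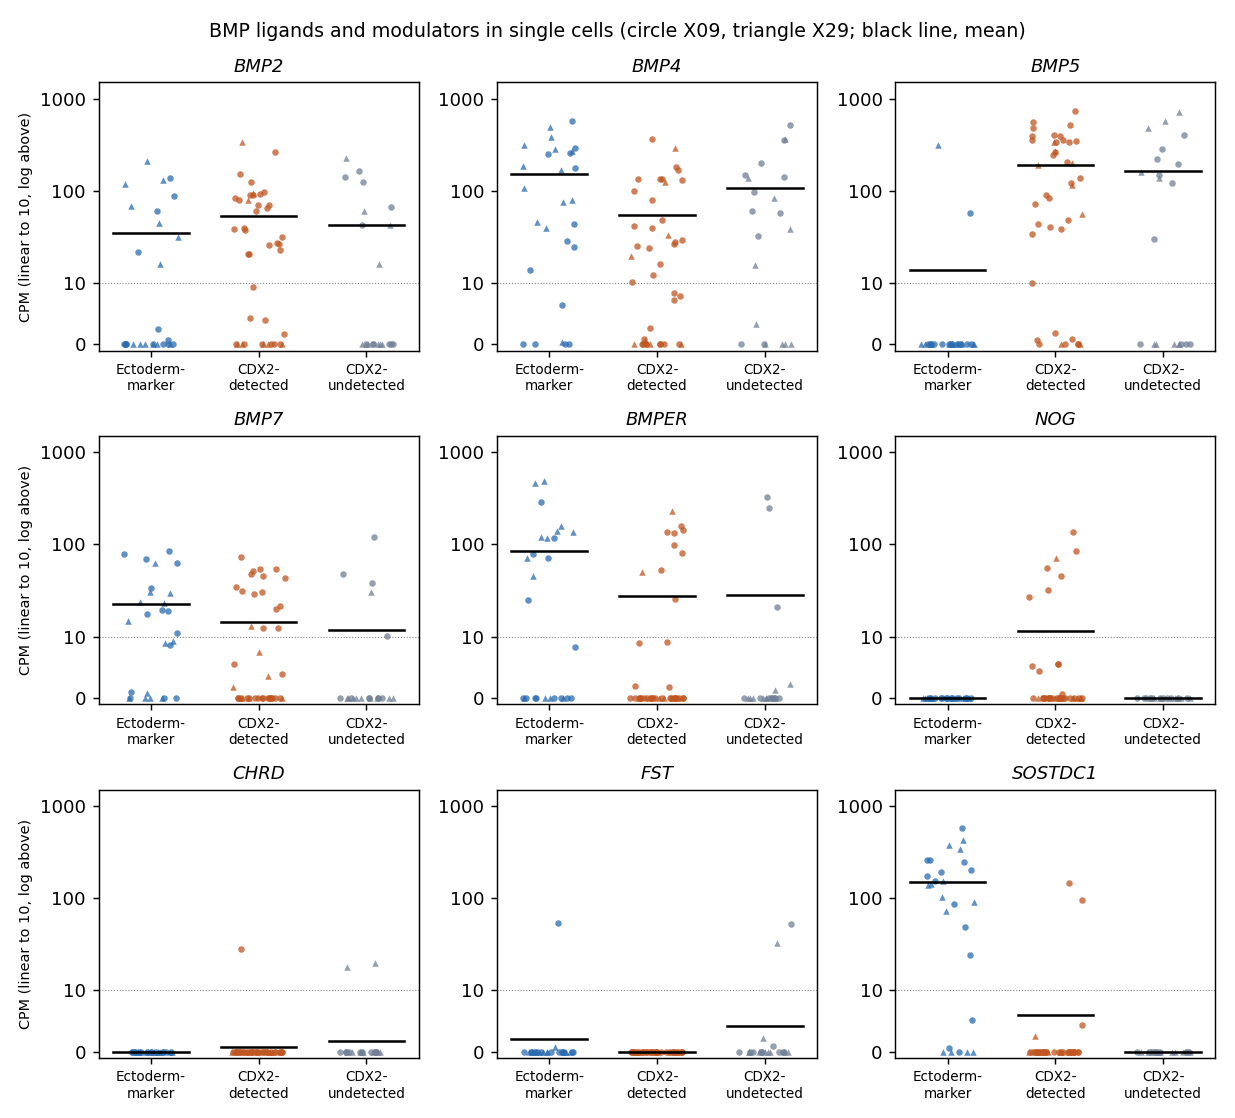
Level of each gene in each cell (vertical axis, CPM, linear to 10 and logarithmic above) for ectoderm-marker, CDX2-detected and CDX2-undetected cells, with circles for X09, triangles for X29, a black line at the mean and a dotted line at the 10 CPM limit. BMP5 is near 0 in all but 2 ectoderm-marker cells, SOSTDC1 in all but 2 of the 62 other cells, and BMP2, BMP4 and BMP7 spread over the same range in every class.

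Of the modulators, SOSTDC1 was nearly restricted to the ectoderm-marker class in these cells. SOSTDC1, also called ectodin or WISE, encodes a secreted protein that binds BMPs and also acts on WNT co-receptors. It was detected in 20 of 27 ectoderm-marker cells (74.1%, 53.7 to 88.9%), 2 of 41 CDX2-detected cells (4.88%, 0.596 to 16.5%) and none of 21 CDX2-undetected cells, where a count of 0 allows up to 14.3%. The lowest, median and highest levels in ectoderm-marker cells were 0, 138 and 577 CPM, while the medians of both other classes were 0. Mean SOSTDC1 was 151 ± 150 CPM in ectoderm-marker cells and 3.98 ± 21.8 CPM in other cells, a ratio of 30.5.

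The direction was the same in both prefixes, with 159 CPM in ectoderm-marker and 5.55 CPM in other cells among X09 cells, and 142 CPM in ectoderm-marker and 0.143 CPM in other cells among X29 cells. Outside the ectoderm-marker class SOSTDC1 was detected in X09_C21 at 144 CPM and X09_C11 at 95.9 CPM. X09_C40 and X29_C88 had SOSTDC1 reads below the limit, at 4.41 and 2.58 CPM. X09_C21 carried 101 CPM of TFAP2A, no PRRX1 and no CDH11, and so sat next to the border of the ectoderm-marker class; without it the ratio was 56.5. X09_C11 had no read of any of the 3 ectoderm markers and had 168 CPM of PRRX1, so it carried SOSTDC1 beside a mesenchymal marker. Next to the border, SOSTDC1 was detected in 4 of the 8 cells with 2 ectoderm markers and in 1 of the 8 cells with 1 marker, against 16 of the 19 cells with all 3.

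BMPER, the homologue of crossveinless 2, binds BMPs and can raise or dampen their signalling depending on the setting. It was detected in 14 of 27 ectoderm-marker cells (51.9%, 32 to 71.3%), 10 of 41 CDX2-detected cells (24.4%, 12.4 to 40.3%) and 3 of 21 CDX2-undetected cells (14.3%, 3.05 to 36.3%). Levels ran from 0 to 482 CPM with a median of 25.2 CPM in ectoderm-marker cells, from 0 to 230 CPM in CDX2-detected cells and from 0 to 324 CPM in CDX2-undetected cells, with medians of 0 in both of these. The mean of 85.8 ± 132 CPM in ectoderm-marker cells was 3.01 times that of 27.8 ± 67.2 CPM in other cells, with 1 CPM added to each.

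That difference came mainly from X29 cells. There BMPER averaged 133 CPM in ectoderm-marker cells and 15.8 CPM in other cells (69.2% against 11.1% detecting). In X09 cells the means were 42.1 CPM in ectoderm-marker and 32.8 CPM in other cells (35.7% against 25% detecting), and 1 cell set their order. Without X09_C17, at 288 CPM, the X09 means were 23.2 CPM in ectoderm-marker cells and 32.8 CPM in other cells, and BMPER no longer met the rule. The mean was 27.6 ± 56.1 CPM in CDX2-detected and 28.3 ± 86.5 CPM in CDX2-undetected cells (ratio 0.975). The ratio was 1.97 without X09_C41, the CDX2-undetected cell with the highest level at 324 CPM, which had 1274 CPM of EPCAM, 93.8 CPM of CLDN3 and no CDH11.

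NOG, which encodes noggin, a binder that keeps BMP2 and BMP4 off their receptors, was seen in CDX2-detected cells alone at the class cutoff used. It had no read in any of the 27 ectoderm-marker cells (up to 11.1% allowed) or the 21 CDX2-undetected cells (up to 14.3% allowed), and was detected in 7 of 41 CDX2-detected cells (17.1%, 7.15 to 32.1%). NOG did not meet the rule, as its share was 17.1 points higher in CDX2-detected than in CDX2-undetected cells. The 7 cells were X09_C09 at 137 CPM, X09_C74 at 85.5, X29_C88 at 71.4, X09_C32 at 55.6, X09_C36 at 45.2, X09_C19 at 32.3 and X09_C92 at 26.8 CPM. By prefix, NOG was detected in 6 of 33 X09 and 1 of 8 X29 cells of the CDX2-detected class. The X29 cell, X29_C88, had 12.9 CPM of CDH1, 9.46 CPM of CLDN3 and 425 CPM of EPCAM beside 480 CPM of PRRX1. It thus carried transcripts typical of both layers, and it had the highest BMP2 and BMPER levels of its class. X09_C09 had 24.3 CPM of TFAP2A and 222 CPM of EPCAM beside 574 CPM of PRRX1. When at least 1 of 3 ectoderm markers was enough, both cells joined the ectoderm-marker class. The NOG ratio of ectoderm-marker over other cells was then 1.22. X29_C88 also joined that class with totals without mitochondrial genes. The absence of NOG from ectoderm-marker cells thus depended on the class cutoff. All 7 cells with NOG detected PRRX1, 6 detected BMP5, 5 BMP2, 3 BMP4 and 3 BMPER. Of all 41 CDX2-detected cells, 38 detected PRRX1, 31 BMP5, 26 BMP2, 24 BMP4 and 10 BMPER. Carrying ligand was thus common in the class and not particular to the cells with NOG. Another 5 CDX2-detected cells had NOG reads below the limit, which makes 12 with a read.

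CHRD and FST were rare. CHRD, which encodes chordin, a BMP binder cut by tolloid proteases, was detected in no ectoderm-marker cell. Among CDX2-detected cells CHRD was detected in X09_C11 at 28.2 CPM. Among CDX2-undetected cells it was detected in X29_C64 and X29_C89 at 19.9 and 17.9 CPM. X29_C64 detected 9 of the 11 endothelial markers, had 26.3% mitochondrial reads and was the shallowest CDX2-undetected cell with 453090 reads. FST encodes follistatin, which binds activins and, less tightly, BMPs. It was detected in X09_C06 among ectoderm-marker cells at 53 CPM, in no CDX2-detected cell (up to 7.32% allowed), and in X09_C67 and X29_C09 among CDX2-undetected cells at 52.2 and 32.9 CPM. Neither gene can be placed in a layer from 3 cells each.

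By the same rule, none of the 6 genes measured among the 62 cells outside the ectoderm-marker class was higher or lower in CDX2-detected than in CDX2-undetected cells. Over all 9281 genes measured there 4.17% were higher and 2.59% lower. Ectoderm-marker cells with CDX2 were few. SOSTDC1 was detected in 7 of these 7 cells and in 13 of the 20 ectoderm-marker cells without CDX2, with means of 208 ± 184 CPM with CDX2 and 131 ± 136 CPM without. Of the 7 cells with CDX2, 6 detected BMP7, 5 BMP4, 2 BMPER and 1 BMP2. Of the 20 without CDX2, 9 detected BMP7, 16 BMP4, 12 BMPER and 10 BMP2. With 7 cells these shares have wide intervals, and their ranges of level overlap for each of the 5 genes. Marker number differed too, since 6 of the 7 cells with CDX2 and 13 of the 20 without had all 3 ectoderm markers. SOSTDC1 was detected in a larger share of cells with 3 markers than with 2, as given above.

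**Figure D3:**
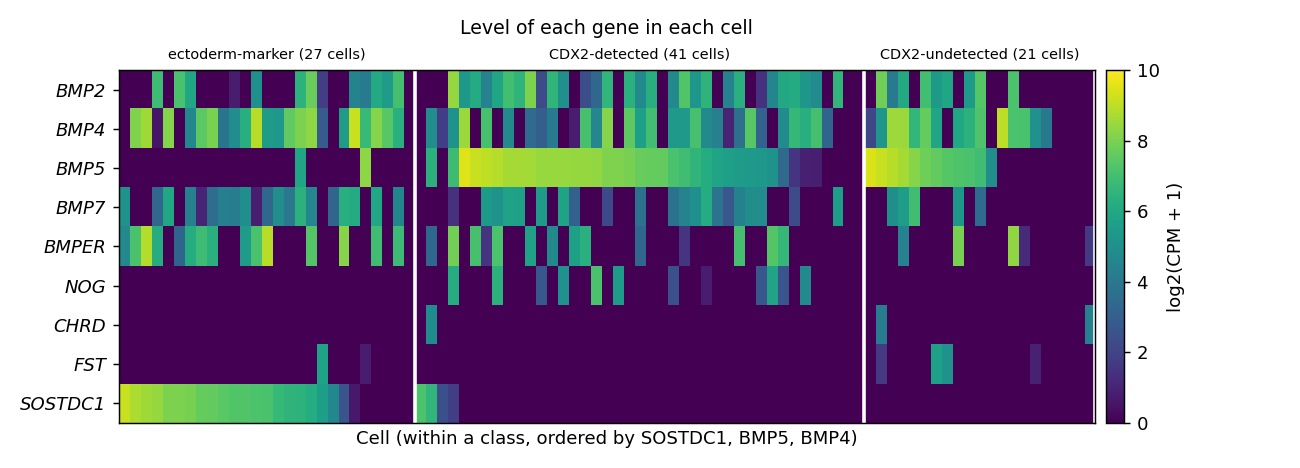
Level of each gene (rows, log2(CPM + 1) as colour) in each of the 89 cells (columns), in blocks of 27 ectoderm-marker, 41 CDX2-detected and 21 CDX2-undetected cells, ordered within a block by SOSTDC1, then BMP5, then BMP4. SOSTDC1 and BMP5 fill different blocks, and BMP4 runs through all 3.

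Genes were also counted together in single cells. No ligand was detected in 3 of 27 ectoderm-marker, 5 of 41 CDX2-detected and 4 of 21 CDX2-undetected cells. No modulator was detected in 4 of 27, 25 of 41 and 14 of 21 cells of these classes. The 4 CDX2-undetected cells without ligand were all endothelial-marker cells, as was X09_C91 among the 5 CDX2-detected cells without ligand. Of those 5 cells, X29_C41 and X29_C90 had 27.2% and 41.4% mitochondrial reads, and X09_C21 carried TFAP2A. At least 1 ligand and at least 1 modulator were detected together in 21 of 27 ectoderm-marker cells (77.8%, 57.7 to 91.4%), 15 of 41 CDX2-detected cells (36.6%, 22.1 to 53.1%) and 6 of 21 CDX2-undetected cells (28.6%, 11.3 to 52.2%). Ligand without any modulator was found in 3 of 27 ectoderm-marker, 21 of 41 CDX2-detected and 11 of 21 CDX2-undetected cells. Ligand was detected in most cells of each class, so the joint shares followed the shares with a modulator. The cells without modulator were mainly outside the ectoderm-marker class, where SOSTDC1 was nearly absent.

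In ectoderm-marker cells the most frequent ligand set was BMP4 with BMP7 (8 cells), then BMP2, BMP4 and BMP7 (5 cells) and BMP4 alone (4 cells). BMP4 was found in 14 of the 15 ectoderm-marker cells with BMP7. Among CDX2-detected cells the leading sets were all 4 ligands (8 cells) and BMP2, BMP4 and BMP5 (7 cells), and among CDX2-undetected cells BMP2, BMP4 and BMP5 (4 cells) and BMP4 alone (4 cells). Outside the ectoderm-marker class 20 of the 21 cells with BMP7 also detected BMP5, a ligand of the same subgroup. BMP4 was detected in 15 of these 21. For comparison, BMP4 was detected in 77.8% of all ectoderm-marker cells and 61.3% of all other cells, and BMP5 in 69.4% of all other cells. The 21 cells with BMP7 all detected PRRX1, and BMP5 was detected in 78.2% of the 55 other cells with PRRX1.

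Among modulators, SOSTDC1 and BMPER were found together in 11 ectoderm-marker cells, SOSTDC1 without another modulator in 8, and BMPER alone in 3. One cell had SOSTDC1 with FST and 4 had no modulator. Of the 20 ectoderm-marker cells with SOSTDC1, 15 detected BMP4, and 6 of the 7 without SOSTDC1 did so too. BMP4 was thus found in most ectoderm-marker cells both with and without SOSTDC1.

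**Figure D4:**
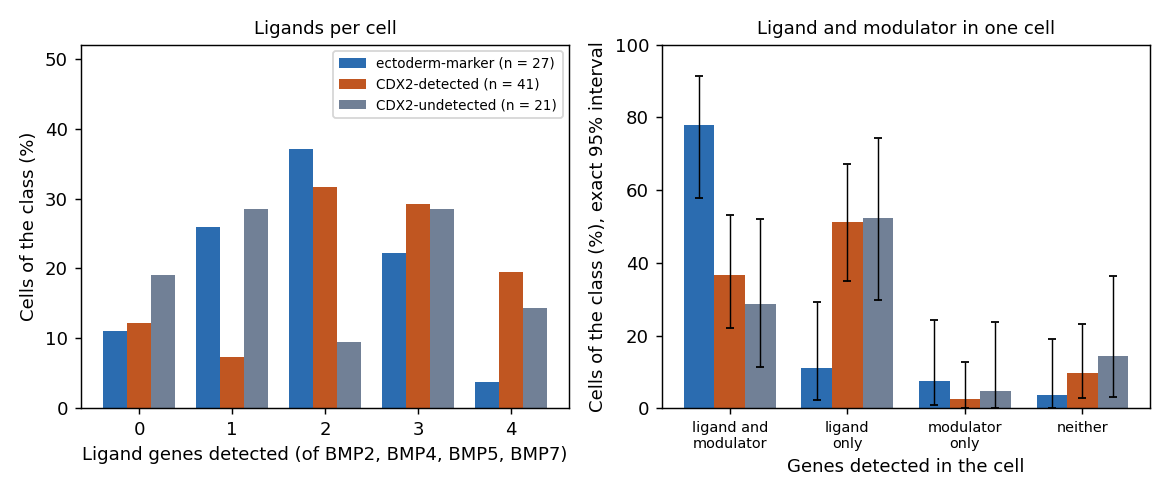
Left, share of cells (%) by the number of the 4 ligands detected, and right, share of cells (%, exact 95% intervals) with ligand and modulator, ligand only, modulator only or neither, for ectoderm-marker (27), CDX2-detected (41) and CDX2-undetected (21) cells. The bar for ligand with modulator stands at 77.8% in ectoderm-marker cells against 36.6% and 28.6% in the others.

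The rest of the pathway was read from 5 lists of 87 genes, of which 56 had a symbol in the table and 41 were measured between ectoderm-marker and other cells. Of these, 6 met the rule as higher in ectoderm-marker cells, all of them response genes, 4 as lower and 31 in neither direction. For comparison, 4.98% of all 9752 measured genes were higher and 4.76% lower. Of the 15 response genes measured, 6 were higher and 2 lower, with a median log2 ratio of 0.85 against -0.03 over all measured genes. DLX6 had no read in other cells. Its ratio lay above that median also when set at 3 reads over all of them, so this setting could not move the median. DLX5, a homeobox gene of non-neural ectoderm, was detected in 85.2% of ectoderm-marker and 29% of other cells (133 ± 104 against 26.7 ± 75.6 CPM). ID3, an inhibitor of basic helix-loop-helix factors that BMP signalling switches on, was detected in 96.3% of ectoderm-marker and 41.9% of other cells (48.1 ± 25.7 against 11.9 ± 20.5 CPM). DLX3 was detected in 59.3% of ectoderm-marker and 6.45% of other cells. The other 3, named after their values were seen, were GATA2, GATA3 and DLX6. DLX3, DLX5, DLX6, GATA2 and GATA3 are also general surface ectoderm genes, and GATA2 was on the list of surface ectoderm markers.

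ATOH8 and HEY1, both transcription factors, were the response genes that met the rule as lower. ATOH8 was detected in 33.3% of ectoderm-marker and 74.2% of other cells, and HEY1 in 22.2% of ectoderm-marker and 43.5% of other cells. MSX1 was detected in nearly the same share, 88.9% of ectoderm-marker and 88.7% of other cells, at a mean of 514 ± 679 CPM in ectoderm-marker and 1542 ± 1353 CPM in other cells. ID2 averaged 722 ± 536 CPM in ectoderm-marker and 399 ± 384 CPM in other cells.

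Few genes of the other lists met the rule. FSTL1, a follistatin-like glycoprotein, was lower in ectoderm-marker cells (54.7 ± 72.1 CPM against 119 ± 168 CPM in other cells) and was the 1 of 6 further modulators that met it. TWSG1, which encodes a BMP-binding partner of chordin, averaged 58.4 ± 81.9 CPM in ectoderm-marker and 66.7 ± 102 CPM in other cells. Of 10 receptors and co-receptors, ENG, the co-receptor endoglin, was lower (3.70% of ectoderm-marker against 25.8% of other cells detecting). ENG and HEY1 no longer met the rule without the 5 endothelial-marker cells. BAMBI, a decoy receptor, averaged 1382 ± 780 CPM in ectoderm-marker and 1120 ± 663 CPM in other cells, and the receptor ACVR1 59.8 ± 103 CPM in ectoderm-marker and 66.6 ± 74 CPM in other cells. None of 8 transducers was higher or lower, and SMAD5 averaged 156 ± 161 CPM in ectoderm-marker and 185 ± 226 CPM in other cells. SMAD6, a feedback inhibitor, averaged 76.9 ± 98.1 CPM in ectoderm-marker and 171 ± 147 CPM in other cells (ratio 0.452), and TOB1, named after its value was seen, 35.7 ± 70.6 CPM in ectoderm-marker and 10.1 ± 20.7 CPM in other cells (ratio 3.31), but their shares differed by less than 20 points. The median log2 ratio was -0.53 for the further modulators, -0.13 for the receptors and -0.20 for the transducers. Of the further ligands only BMP6 and GDF3 were measured. BMP6 was detected in 4 of 27 ectoderm-marker cells with no read in the other 62, and GDF3 in 22.2% of ectoderm-marker and 16.1% of other cells.

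**Figure D5:**
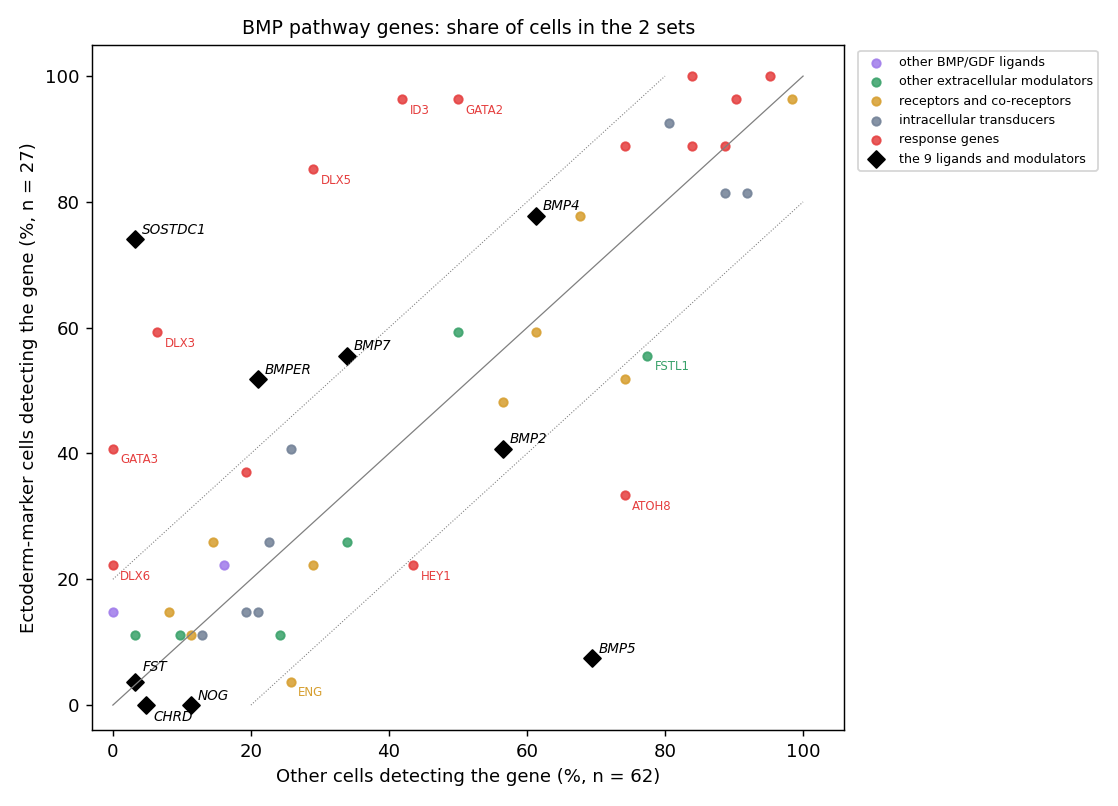
Share of ectoderm-marker cells (vertical axis, %, n = 27) against share of other cells (horizontal axis, %, n = 62) detecting each measured gene of the 5 lists and the 9 ligands and modulators; the solid line marks equal shares and dotted lines 20 points of difference. SOSTDC1, DLX5, ID3 and DLX3 lie far above the line, BMP5 and ATOH8 far below, and most receptors and transducers near it.

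Among the cells outside the ectoderm-marker class, 38 genes of these lists were measured, 4 were higher and 1 lower with CDX2. For comparison, 4.17% of all 9281 genes measured there were higher and 2.59% lower. The higher genes were 2 feedback inhibitors from the transducer list and 2 transcription factors from the list of response genes. The other 10 of the 12 response genes measured met the rule in neither direction, and the median log2 ratio of this list was -0.45. That median was 0.50 for the 9 transducers, -0.46 for the receptors and -0.32 for the further modulators, against -0.04 over all measured genes. Whether BMP signalling differed with CDX2 was not tested. SMAD6 averaged 226 ± 148 CPM in CDX2-detected and 65.1 ± 64 CPM in CDX2-undetected cells, and Smad7b was detected in 29.3% of CDX2-detected and 4.76% of CDX2-undetected cells. HAND1 was detected in 97.6% of CDX2-detected and 28.6% of CDX2-undetected cells. MSX1 averaged 2197 ± 1185 CPM in CDX2-detected and 265 ± 428 CPM in CDX2-undetected cells. ENG was lower (17.1% of CDX2-detected against 42.9% of CDX2-undetected cells detecting), and no longer met the rule once the endothelial-marker cells were left out.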

How the data were processed

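Single cells of dissociated grafts were captured on a Fluidigm C1 chip and photographed, and full-length cDNA was made with a SMARTer kit and sequenced as Nextera XT libraries, per the labels' protocols. The deposited values are raw read counts per gene. Reads were aligned with HISAT2 2.1.0 to GRCg6a and counted with featureCounts, per the submitters' processing notes; for both tools the settings were not given in the sources used here. Without molecular identifiers, amplified copies of 1 molecule add to the counts, and the intervals and the limits at 0 (3 cells of the total) reflect counting error alone.

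CPM was computed over the 13823 gene rows of each cell, leaving out 3 spike-in rows. Of these genes 3371 carried an Ensembl identifier that could not be paired with a symbol. CPM is not scaled by gene length, so levels were not compared between genes. No gene coordinates or sequences were used. Detection needed 10 CPM and at least 1 read. Each fold divides mean CPM, after adding 1 CPM, of one class by that of another, and no fold is given against a class without a detecting cell. All 89 cells were kept, no 2 cells had identical counts, and no doublet caller was run. The labels name no separate animals for the cells, so the pool is 1 sample.

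The 9 genes, the classes and the lists were chosen with earlier results of these data known. All 9 genes are named. Of each pathway list the text names those past the size rule, at most 3 a direction by difference in share, and at most 2 others by mean CPM; for each of the 9 detected in at least 10 cells it names the 3 genes with a symbol and the highest Spearman correlation. The size rule was tested on simulated counts, where a changed gene was switched off in most detecting cells of the lower class. Between ectoderm-marker and other cells it called 72% of 4-fold and 88% of 16-fold changes. With CDX2 it called 60% and 83%. Changes of level at equal shares were not simulated. A gene that met the rule in neither direction may thus still differ. Other detection limits, totals, class cutoffs, prefixes alone, sets of cells left out and parts of the rule were tried as alternatives. Python 3.11.15, numpy 2.4.6, pandas 2.3.3, scipy 1.17.1 and matplotlib 3.10.9 were used.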

Additional observations from a re-analysis of the deposited data

How the results depend on the processing

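No paired analysis was possible because all 89 cells are 1 pooled sample, and the labels give nothing that pairs cells across the classes. BMP5 stayed lower and SOSTDC1 higher in ectoderm-marker than in other cells under each alternative run, including every single cell left out. The BMP5 ratio was at its highest, 0.172, when detection needed any read, and the SOSTDC1 ratio at its lowest, 8.39, with all 3 ectoderm markers required. The count of the 9 genes higher in ectoderm-marker cells, 2 as reported, was 1 at a 50 CPM limit and in X09 cells alone (BMPER lost), 4 in X29 cells alone (BMP4 and BMP7 added), 3 by fold alone (BMP4 added), and 1 to 2 with each cell left out in turn, the 1 being without X09_C17. The count lower, 1 as reported, was 2 in X09 cells alone (BMP2 added) and 2 by fold alone (NOG added). By fold alone, 12.7% of all 9752 measured genes were higher and 12.7% lower in ectoderm-marker cells. Of all 9281 genes measured outside that class, 10% were higher and 11.8% lower with CDX2 by fold alone. With CDX2, no gene was higher as reported, 1 in X29 cells alone (BMPER) and 1 by fold alone (NOG); none was lower as reported, 1 in X09 cells alone (BMP4), 1 in X29 cells alone (CHRD) and 1 without endothelial-marker cells (BMP4).

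For the pathway lists, the 4 genes lower in ectoderm-marker cells were 2 when detection needed any read, at 50 CPM, with totals without mitochondrial genes, with size factors, with all 3 or at least 1 of 3 ectoderm markers, in X09 cells alone and without endothelial-marker cells, and 7 by fold alone. The 4 higher with CDX2 were 1 at 50 CPM, 8 with at least 1 of 3 markers and up to 7 without X09_C41. The 1 lower with CDX2 was 0 at 50 CPM, after thinning and with all 3 markers; 2 with at least 1 of 3 markers and without the cells of over 20% mitochondrial reads, of endothelial markers, of under 3000 genes or without PRRX1; 9 in X29 cells alone; 5 by fold alone; and up to 3 without X29_C89. The cause of these changes was not tested. For comparison, by fold alone 12.7% of all measured genes were lower in ectoderm-marker cells and 11.8% lower with CDX2. Leaving out PRRX1-negative cells and single cells was chosen after seeing the data. With all cells thinned to 328645 reads, none of the 27 shares (9 genes, 3 classes) moved out of its interval, whereas 12 did at the 50 CPM limit and 7 in X29 cells alone. With 27, 41 and 21 cells, genes in few cells, such as CHRD and FST, cannot be placed in a class.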

Other observations

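Genes whose level followed each of the 9 most closely were ranked by Spearman correlation of log2(CPM + 1) over the 89 cells, as a description only, since the cells share a library method, depth and the division into layers. SOSTDC1 was nearest to CDH1 (rho 0.80), which was used to divide the cells, and to the uroplakin genes UPK3B (0.78) and UPK1B (0.76), which encode membrane proteins of urothelium. UPK1B was detected in 96.3% of ectoderm-marker, 12.2% of CDX2-detected and 4.76% of CDX2-undetected cells. BMP5 was nearest to PTN (0.78), a secreted heparin-binding growth factor, TNNC1 (0.74), a troponin, and ACTA2 (0.74), smooth muscle actin. PTN was detected in 7.41% of ectoderm-marker, 95.1% of CDX2-detected and 76.2% of CDX2-undetected cells. BMP2 was nearest to FGFR3 (0.51), LRRC2 (0.50) and HAND2 (0.45), and BMP7 to LAMP2 (0.55), LAMP1 (0.47) and TMED7 (0.47). The nearest genes of BMP4 were PPP2CB, PEBP1 and YWHAH (0.39 to 0.44), and those of BMPER were GPR37, CD9 and KCNJ16 (0.44 to 0.45). The values for BMP2, BMP4, BMP7 and BMPER are all weak, and in sparse counts such a correlation is no finding. NOG, CHRD and FST were detected in fewer than 10 cells and were not ranked.

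The 5 cells with endothelial markers detected none of the 4 ligands. BMP4 reached 8.40 CPM in 1 of them and the other ligands had no read, and CHRD in X29_C64 was the single modulator detected. A count of 0 in 5 cells allows shares of up to 60%, so absence of the ligands from such cells is not shown.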
